A study of Mus musculus with 16 samples.

Results

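The 10 genes described here encode the core of the microRNA (miRNA) silencing machinery: the GW182 scaffolds Tnrc6a, Tnrc6b and Tnrc6c, the Argonautes Ago1, Ago2, Ago3 and Ago4, and the biogenesis factors Dicer1, Drosha and Xpo5. They were taken by symbol, and 10 of the 50316 genes listed in the files matched, each with a value in every library. The set was selected on these data, because Tnrc6a is among the genes with the highest ribosome immunoprecipitation (IP) over input. IP over input is therefore given for all 10 genes as a description, with no test, and only the change after damage was tested.

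RNA was sequenced from cochleae of P4 mice in 16 libraries. Control mice were GLAST CreERT/+; Rpl22 HA/+, and DTR mice were Lgr5 DTR/+; GLAST CreERT/+; Rpl22 HA/+, so both carried the inducible Cre and the tagged ribosomal protein and differed in the diphtheria toxin (DT) receptor placed at Lgr5. The study's methods describe injection of DT and tamoxifen into mice of both genotypes at P1, but the sample labels name no treatment for the control libraries. Each of the 4 replicates of a genotype was a pool of 8 cochleae from 4 mice, dissected free of lateral wall, Reissner's membrane and spiral ganglia. From each homogenate 5% was kept as input and 95% was used for IP with an anti-HA antibody, which gave 4 libraries each of input and IP for either genotype. GLAST-Cre marks greater epithelial ridge and inner phalangeal cells, so the IP was designed to enrich ribosome-bound messages of those cells. The input holds all cells of the dissected tissue.

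A miRNA precursor is cut in the nucleus by Drosha with its partner DGCR8, carried to the cytoplasm by exportin 5 (Xpo5) and cut again by Dicer. An Argonaute protein then holds the mature miRNA and finds messages through the seed at the 5′ end of the miRNA. GW182 proteins bind Argonaute through glycine-tryptophan repeats and recruit the CCR4-NOT and PAN2-PAN3 deadenylases, which leads to repression and decay of the message. In the inner ear the pathway is known from the loss of Dicer, which disturbs hair cell development, and from the deafness caused by changes in the seed of miR-96.

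Reads counted on genes ranged from 28089836 to 41966310 per library, and every one of the 10 genes had at least 360 reads in each library. Values are counts scaled to 1000000 reads on genes in each library (CPM) as deposited, and fold changes are on the scale log2(quantile normalized CPM + 0.5), fitted with limma over 16994 tested genes. All 10 genes passed the filter on low values. Summed CPM of marker lists for hair cells (9 genes, median 823 in control input and 281 in control IP), Schwann cells (5 genes, 3505 and 974) and macrophages (6 genes, 92.7 and 17.9) were lower in IP, while the cochlear epithelial list (6 genes) had a median of 4904 in input and 4938 in IP. No marker in these lists was at 0 in all libraries of a group. Slc1a3, which encodes GLAST, had a median of 274 CPM in control input and 232 CPM in control IP, so the gene that names the labelled cells was not higher in IP. Lgr5 had a median of 64.0 CPM in control input and 16.5 CPM in DTR input.

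The miRNA sequences that bear on these genes are shown first, because the Argonaute with the highest IP over input carries matches to a let-7 seed in its own message. The mature sequences below are from RefSeq (GRCm38.p6), 5′ to 3′, with the seed (bases 2 to 8) in capitals. The 3 let-7 members share a seed, whereas the hair cell miRNAs miR-96, miR-182 and miR-183 have seeds that differ from each other. The mature miRNAs themselves were not measured in these libraries.
let-7a-5p: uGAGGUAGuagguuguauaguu
let-7b-5p: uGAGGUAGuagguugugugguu
let-7c-5p: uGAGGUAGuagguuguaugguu
miR-15a-5p: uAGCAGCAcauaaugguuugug
miR-96-5p: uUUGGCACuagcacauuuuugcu
miR-182-5p: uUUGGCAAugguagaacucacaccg
miR-183-5p: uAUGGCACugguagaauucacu

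Matches to these seeds were counted in the longest annotated 3′ UTR of each gene (GENCODE M21, GRCm38), on the message strand alone, with overlapping matches allowed. For let-7 the letters searched were CTACCTC, and 10.6% of the 14415 tested genes with a 3′ UTR held them at least once. Ago2 held 3 matches and Ago3 held 1, and the other 8 genes held none. The 4 matches are shown with 8 bases on either side and the match in capitals, all in 3′ UTRs on the minus strand of GRCm38.
Ago2, chr15:73101717-73101739: cataaaagCTACCTCtgacttct
Ago2, chr15:73100033-73100055: cctctgtcCTACCTCcaggcact
Ago2, chr15:73097975-73097997: atgtggatCTACCTCagttaaac
Ago3, chr4:126335033-126335055: gccctcacCTACCTCaccaagtc

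The 3′ UTR of Ago2 is 11064 bases long, and 0.208% of the UTRs were longer. Among 60 UTRs of 0.8 to 1.25 times that length, its own included, 48.3% held the let-7 letters. Ago2 was the sole UTR of those 60 with at least 3 matches, so that share of 1.67% is Ago2 itself. Over all UTRs, 0.194% held at least 3. Ago2 also held 5 matches to miR-183 (GTGCCAT), which 10.7% of UTRs held at least once and 0.132% at least 3 times. It further held 3 matches to miR-200b, 2 each to miR-15a and miR-125b, and 1 each to miR-182 and miR-17. At least 3 matches to miR-200b were held by 0.555% of UTRs. Ago3 held 3 matches to miR-17, where 0.326% of UTRs held at least 3. Tnrc6b and Ago3, with 3′ UTRs of 11609 and 12742 bases, each held 4 matches to miR-15a (TGCTGCT). Of all UTRs, 24.2% held that string at least once and 2.10% at least 3 times. These shares are over UTRs of all lengths (median 1187 bases), and shares at like length were counted for let-7 alone. Tnrc6a (2345 bases) and Tnrc6c (2588 bases) held no match to let-7, miR-15a, miR-96, miR-182 or miR-183. Among other miRNAs scanned, Tnrc6a held 1 match to miR-9 and 1 to miR-17, and Tnrc6c held 1 to miR-17 and 2 to miR-210. At least 1 such match was held by 14.0% (miR-9), 14.2% (miR-17) and 3.77% (miR-210) of UTRs. A match is a string of letters and not a measured site.

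All 3 GW182 scaffold genes were far higher in IP than in input in both genotypes. Tnrc6a, which spans chr7:123123885-123195296 on the plus strand, measured 28.8, 39.5, 32.9 and 27.9 CPM in control input pools 1 to 4 and 658, 703, 572 and 380 CPM in the matching IP libraries. In DTR pools it measured 42.4, 38.2, 37.5 and 44.9 CPM in input and 613, 744, 991 and 543 CPM in IP. The lowest IP library lay above the highest input library by a wide margin in both genotypes, and pool 4 had the lowest IP value of its genotype each time. The fitted log2 fold change of IP over input was 4.12 (SE 0.19) in control and 4.21 (SE 0.19) in DTR pools, ranks 2 and 1 among the 16994 tested genes. Within the 8 pools the ratio of IP to input CPM ran from 12.1 to 26.5, with a median of 17.6.

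Tnrc6b, at chr15:80711313-80941085 on the plus strand, encodes another GW182 scaffold. Its input values were 44.1, 45.5, 44.9 and 38.3 CPM in control and 54.7, 53.4, 52.9 and 65.1 CPM in DTR pools. Its IP values were 715, 732, 659 and 436 CPM in control and 595, 757, 917 and 528 CPM in DTR pools. IP and input did not overlap, and the log2 fold change was 3.86 (SE 0.18) in control and 3.73 (SE 0.18) in DTR pools, rank 6 in both. Tnrc6c, at chr11:117654289-117763439 on the plus strand, averaged 41.9 ± 3.60 CPM in control input and 429 ± 59.2 CPM in control IP (SD, n = 4). In DTR pools it averaged 42.8 ± 3.69 CPM in input and 441 ± 96.5 CPM in IP (SD, n = 4). Its log2 fold change of IP over input was 3.35 (SE 0.14) in control and 3.41 (SE 0.14) in DTR pools, ranks 15 and 12.

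Of the 4 Argonautes, Ago2 alone had an IP over input like that of the scaffolds. Ago2, at chr15:73095844-73184935 on the minus strand, encodes the Argonaute that can cleave its target. It measured 33.3, 35.7, 30.2 and 29.1 CPM in control input and 446, 413, 329 and 238 CPM in control IP. In DTR pools it measured 43.9, 40.0, 34.8 and 34.0 CPM in input and 367, 403, 470 and 288 CPM in IP. IP lay above input in each of the 8 pools, by 8.17 to 13.5 times, and the log2 fold change was 3.42 (SE 0.17) in control and 3.36 (SE 0.17) in DTR pools, ranks 14 and 15. Exons of Ago2 share 219 bases (1.56%) with Chrac1 on the other strand, and the strand setting of the counting is not given in the sources used here.

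Ago1, Ago3 and Ago4 are neighbours on chromosome 4 and were closer to input. Ago1 (chr4:126435012-126468583) had a log2 fold change of IP over input of 1.14 (SE 0.12) in control and 1.69 (SE 0.12) in DTR pools. Ago3 (chr4:126331704-126429556) had 1.13 (SE 0.17) and 1.12 (SE 0.17), and Ago4 (chr4:126489541-126533472) had 0.84 (SE 0.16) and 0.90 (SE 0.16). All 3 genes were higher in IP than in input in each of the 8 pools, with ratios from 1.24 (Ago4, DTR pool 4) to 4.45 (Ago1, DTR pool 3).

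**Figure D1:**
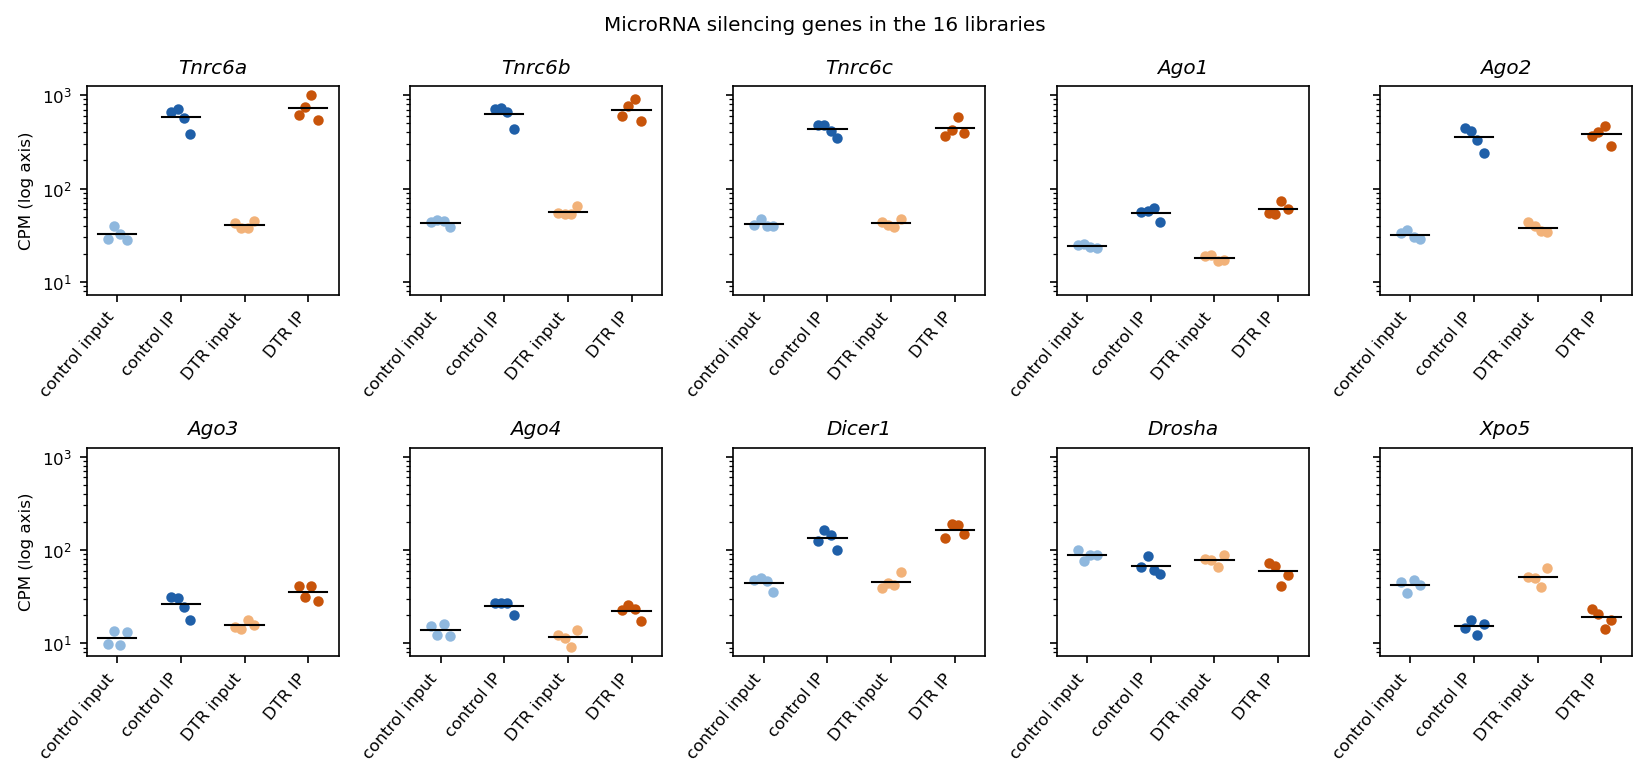
CPM (log axis) of the 10 genes in each of the 16 libraries, with 4 libraries per group as points and the group mean as a line. Tnrc6a, Tnrc6b, Tnrc6c and Ago2 lie above 230 CPM in every IP library and below 70 CPM in every input library, Xpo5 lies lower in IP than in input, and the control and DTR points of a sample type overlap for most genes.

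The biogenesis genes did not share a direction. Dicer1 (chr12:104687742-104751952, minus strand) encodes the cytoplasmic nuclease and measured 47.3, 49.9, 46.5 and 35.6 CPM in control input against 125, 163, 146 and 99.7 CPM in control IP. Its log2 fold change was 1.55 (SE 0.16) in control and 1.84 (SE 0.16) in DTR pools, and IP was above input in each of the 8 pools. Drosha (chr15:12824815-12935291, plus strand), the nuclear nuclease, averaged 88.4 ± 10.1 CPM in control input and 67.0 ± 13.1 CPM in control IP (SD, n = 4), and these groups overlapped. Its IP over input was -0.39 (SE 0.15) in control and -0.44 (SE 0.15) in DTR pools on the log2 scale, and 1 of the 8 pools, control pool 2, had more in IP.

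Xpo5 (chr17:46202782-46243598, plus strand), which exports the precursor from the nucleus, was lower in IP than in input in every pool. It measured 45.8, 34.4, 47.2 and 42.0 CPM in control input and 14.8, 18.0, 12.4 and 16.3 CPM in control IP. In DTR pools it measured 51.6, 49.7, 40.1 and 64.6 CPM in input and 23.1, 20.8, 14.4 and 17.7 CPM in IP. Input exceeded IP by 1.92 to 3.81 times within pools. The log2 fold change of -1.43 (SE 0.16) in control and -1.45 (SE 0.16) in DTR pools placed it 322nd and 223rd from the lower end of the 16994 tested genes.

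Set against all tested genes, 7 of the 10 genes had a log2 fold change of IP over input of 1 or more in control pools, where the share over all tested genes was 5.42%, and 7 of 10 did in DTR pools, where it was 5.32%. A log2 fold change of 3 or more was reached by 4 of 10 in control pools, against 0.188% of tested genes, and by 4 of 10 in DTR pools, against 0.159%. A log2 fold change of -1 or less was found for 1 of 10 (Xpo5) in control pools, against 5.49%, and for 1 of 10 in DTR pools, against 4.27%. Since the set was selected on IP over input, these counts describe it and nothing is read from them. The median over the 10 genes was 1.35 in control and 1.76 in DTR pools, beside -0.001 and -0.03 over all tested genes.

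**Figure D2:**
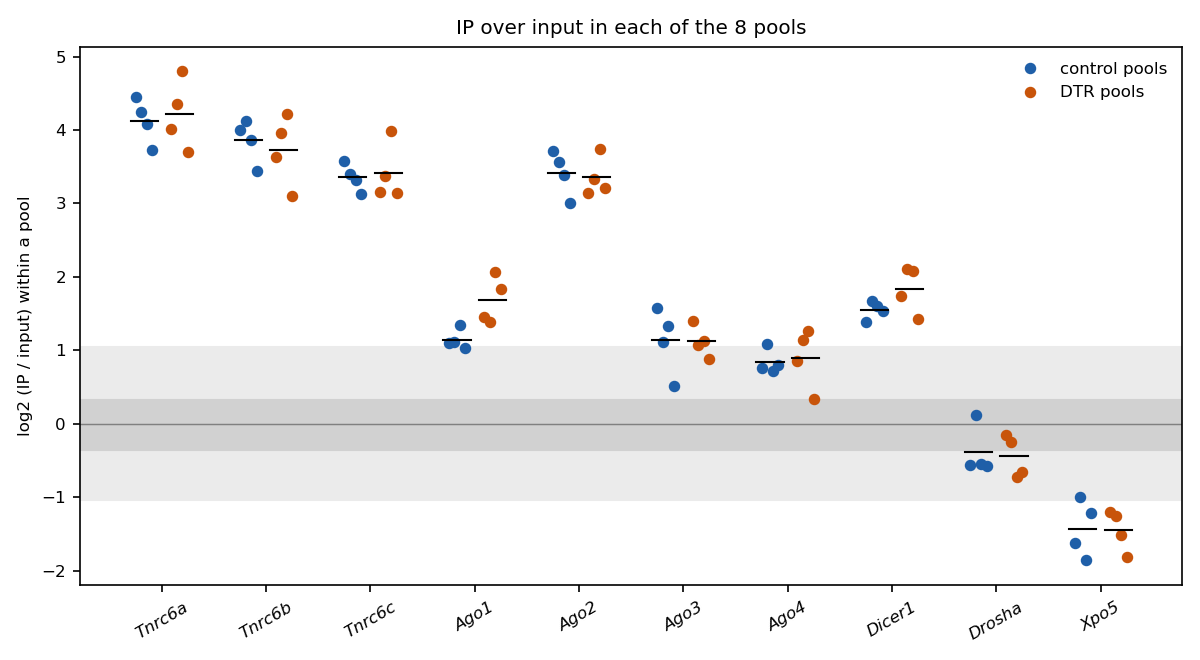
Log2 ratio of IP to input for the 10 genes within each of the 8 pools (points; lines are means of 4 pools), from quantile normalized CPM + 0.5. Dark and light grey bands hold the middle 50% and 90% of fitted control fold changes over all tested genes, and the points of Tnrc6a, Tnrc6b, Tnrc6c and Ago2 lie above 3 in all 8 pools.

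On both the CPM and the normalized scale, pool 4 had the lowest IP over input of its genotype for Tnrc6a, Tnrc6b, Tnrc6c and Ago3, in control and in DTR mice alike. DTR pool 3 had the highest ratio of the 8 pools on both scales for Tnrc6a, Tnrc6b, Tnrc6c, Ago1, Ago2 and Ago4. Over all alternatives tried, each library left out in turn among them, the log2 fold change of Tnrc6a in control pools ran from 4.00 to 4.31.

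Levels of different genes are set side by side per kilobase (kb) of exon and per kb of coding sequence. The same CPM of a gene was divided by either length. In control input, Drosha was highest at 14.9 ± 1.70 CPM per kb of exon (SD, n = 4), followed by Xpo5 at 6.18 ± 0.83, and neither range overlapped with the next gene. The 7 genes from Tnrc6c at 3.26 ± 0.28 to Tnrc6b at 1.82 ± 0.14 CPM per kb of exon followed, each overlapping with its neighbour in the order, and Ago3 was lowest at 0.69 ± 0.13. In control IP the order differed, with Tnrc6a at 45.5 ± 11.2, Tnrc6c at 33.4 ± 4.61, Tnrc6b at 26.8 ± 5.76 and Ago2 at 25.4 ± 6.63 CPM per kb of exon, neighbours overlapping. Drosha came next at 11.3 ± 2.20, and Xpo5 was ninth at 2.24 ± 0.35 CPM per kb of exon. Per kb of coding sequence the order in control IP was instead Ago2 at 138 ± 36.1, Tnrc6b at 113 ± 24.4, Tnrc6a at 98.0 ± 24.2 and Tnrc6c at 75.3 ± 10.4 CPM per kb, neighbours again overlapping. In control input, Drosha was highest on that scale too, at 21.5 ± 2.45 CPM per kb of coding sequence, and Ago2 at 12.4 ± 1.15 overlapped with Xpo5 at 11.7 ± 1.58.

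Within the Argonaute family, the summed CPM per kb of exon was divided differently in input and in IP. Ago2 held 28.6% ± 1.57 of it in control input and 67.4% ± 3.75 in control IP, and 35.9% ± 2.51 in DTR input and 67.7% ± 2.76 in DTR IP (SD, n = 4). Ago1 held 37.5% ± 0.67 in control input and 18.5% ± 2.80 in control IP. Dividing the same CPM by kb of coding sequence takes the long 3′ UTR of Ago2 out of the length but removes no reads. On that scale the share of Ago2 was 39.6% ± 1.62 in control input and 77.0% ± 2.70 in control IP. That of Ago1 was 29.1% ± 0.18 in control input. Within the GW182 family Tnrc6a held 33.2% ± 2.14 of the CPM per kb of exon in control input and 42.7% ± 2.29 in control IP, and Tnrc6c went from 42.9% ± 1.5 to 32.0% ± 2.79. Shares follow from the IP over input that selected the set and carry no test.

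**Figure D3:**
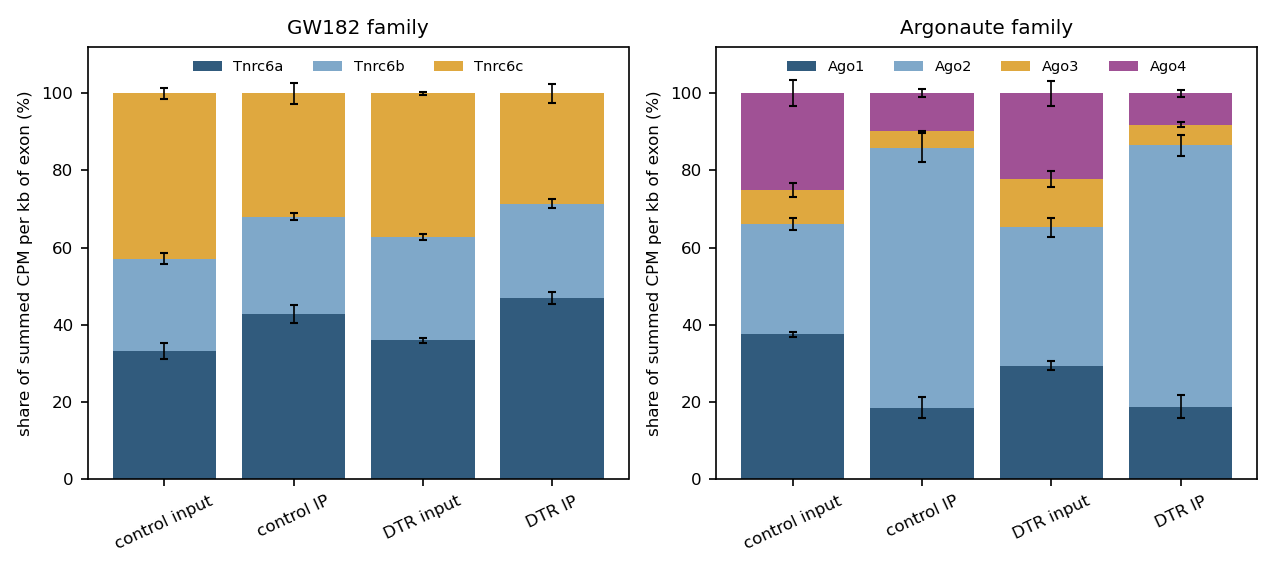
Share (%) of each paralog in the summed CPM per kb of exon of its family, mean of 4 libraries per group, with error bars of 1 SD at the top of each segment. In the Argonaute family Ago2 takes 28.6% in control input and 67.4% in control IP, and in the GW182 family Tnrc6a takes 33.2% and 42.7%.

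The change after damage was the comparison that the selection did not use. In IP, none of the 10 genes was called at an adjusted p under 0.05 (limma, Benjamini-Hochberg over 16994 genes), where 8.44% of tested genes were called higher and 7.3% lower in DTR IP. At an unadjusted p under 0.05, 2 of 10 passed, Tnrc6a and Ago3, where 28.4% of tested genes did, and edgeR and DESeq2 on the recovered reads also called 0. Tnrc6a averaged 578 ± 143 CPM in IP of control pools and 723 ± 197 CPM in IP of DTR pools (SD, n = 4), and the groups overlapped. Its log2 fold change was 0.42 (95% confidence interval 0.02 to 0.82, adjusted p = 0.153). Ago3 had a log2 fold change of 0.41 (0.06 to 0.76, adjusted p = 0.106), and averaged 26.1 ± 6.34 CPM before and 35.5 ± 6.50 CPM after damage. The log2 fold changes of the other 8 genes ran from -0.22 (Drosha) to 0.32 (Dicer1), with adjusted p from 0.201 to 0.766. Control and DTR values overlapped for all 10 genes in IP, whereas 17% of tested genes had groups that did not overlap.

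In input, 1 of the 10 genes was lower after damage and none was higher, where 7.17% of tested genes were called higher and 5.21% lower. At an unadjusted p under 0.05, 2 of 10 passed, Ago1 and Ago3, where 23.2% of tested genes did, and edgeR and DESeq2 also called 0 higher and 1 lower. Ago1 measured 24.7, 25.6, 23.8 and 22.9 CPM in control input and 19.1, 19.3, 16.6 and 17.1 CPM in DTR input. All 4 DTR libraries lay below all 4 control libraries, and Ago1 fell by 0.44 on the log2 scale (95% confidence interval -0.70 to -0.18, adjusted p = 0.0215). The call was lost when control input replicate 1 (adjusted p = 0.0557), control input replicate 2 (0.0591), DTR input replicate 3 (0.0542) or DTR input replicate 4 (0.0532) was left out. In bulk input, fewer cells with the message and less message per cell cannot be told apart.

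Tnrc6b and Ago3 also had input groups that did not overlap, without passing the test, so that 3 of the 10 genes had such groups where 19.3% of tested genes did. Tnrc6b averaged 43.2 ± 3.31 CPM in control input and 56.5 ± 5.79 CPM in DTR input, a log2 fold change of 0.36 (-0.01 to 0.74, adjusted p = 0.236). It passed at an adjusted p of 0.0287 when the model held the input groups alone. Ago3 averaged 11.5 ± 2.10 and 15.6 ± 1.5 CPM, a log2 fold change of 0.42 (0.07 to 0.77, adjusted p = 0.117). Log2 fold changes of the remaining 7 genes ran from -0.28 (Ago4) to 0.33 (Tnrc6a), with adjusted p from 0.305 to 0.961. The study required an absolute log2 fold change of at least 1 and an adjusted p under 0.05. It also required a smallest higher value over 1.5 times the largest lower value. These thresholds were applied here to the limma fit, whereas the study used DESeq2, so the shares below are not the study's own. By them, 0 of the 10 genes changed in IP, where 2.47% of tested genes did, and 0 of 10 in input, where 2.34% did.

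Summed CPM of some marker lists differed with treatment in these inputs, where cell numbers were not measured. The summed CPM of the cochlear epithelial list ranged from 4578 to 7840 in control input and from 2830 to 3638 in DTR input, that of the Schwann cell list from 2421 to 4340 and from 1203 to 1940, and that of the macrophage list from 90.1 to 95.7 and from 119 to 194. Control and DTR input overlapped for the hair cell list (medians 823 and 818), a mesenchyme list of 6 genes (6229 and 6460) and an endothelial list of 4 genes (87.8 and 83.8). The part of the epithelial, Schwann cell and macrophage shifts in the lower Ago1 of DTR input was not tested. In IP the cochlear epithelial list ranged from 4680 to 5086 CPM in control and from 1947 to 2939 in DTR libraries. The mesenchyme list ranged from 3227 to 4438 and from 5019 to 5877, and the macrophage list from 13.4 to 21.9 and from 32.1 to 47.7. The Schwann cell list ranged from 764 to 1193 and from 523 to 747. The part of these differences in the IP changes was not tested either. Control and DTR IP overlapped for the hair cell and endothelial lists. Lists of 6 neuronal and 5 erythroid genes overlapped in input and in IP.

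**Figure D4:**
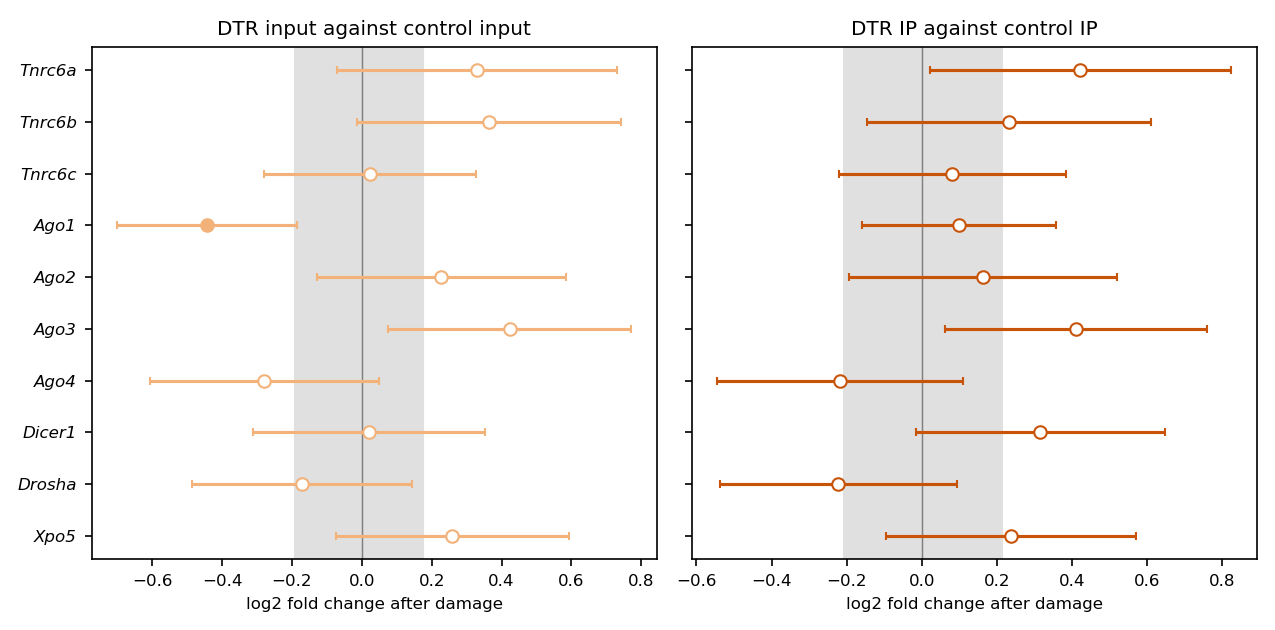
Log2 fold change after damage of the 10 genes in input (left) and in IP (right), with 95% confidence intervals; filled points have an adjusted p under 0.05 and the grey band holds the middle 50% of all tested genes. Ago1 in input, at -0.44, is the single filled point.

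The difference between the change in IP and the change in input was not called for any of the 9 genes tested (Tnrc6a, as the gene that selected the set, got no test), where 0.0118% of tested genes, 2 of 16994, were called. Blocking on the pool raised this number to 40, of which 0 were among the 9, and edgeR and DESeq2 also called 0 of the 9. Ago1 had the largest difference, 0.54 (95% confidence interval 0.18 to 0.90, unadjusted p = 0.00591, adjusted p = 0.587 by limma). It was lower after damage in input alone, but its change in input was thus not shown to differ from its change in IP. At an unadjusted p under 0.05, 1 of the 9 passed, where 5.12% of tested genes did. The intervals of the other 8 tested genes included 0, and for Tnrc6a the difference was 0.09 (-0.48 to 0.66).

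The partners and effectors of the pathway were followed with a list of 60 genes, of which 58 were tested. Dgcr8, the Drosha partner, reached at most 1.62 CPM and Lin28a at most 0.93 CPM, and neither passed the filter. The list's median log2 fold change of IP over input was 0.01 in control and 0.02 in DTR pools, and 10 of 58 reached 1 or more in control pools while 2 of 58 were at -1 or less, against 5.42% and 5.49% of tested genes. The 3 highest in control pools were Trim71 at 3.44 (SE 0.20), Gigyf1 at 3.04 (SE 0.20) and Lin28b at 2.65 (SE 0.32). Trim71 encodes an RNA-binding ubiquitin ligase and averaged 1.83 ± 0.21 CPM in control input and 25.9 ± 6.36 CPM in control IP. Gigyf1, a scaffold of translational repression with the cap-binding protein 4EHP, averaged 16.4 ± 4.70 and 135 ± 15.8 CPM. Lin28b, which blocks let-7 maturation, averaged 2.12 ± 0.83 and 16.9 ± 8.04 CPM.

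The 3 lowest of the list were Cnot1, Zcchc6 and Adar. Cnot1, the scaffold of the CCR4-NOT complex that GW182 proteins recruit, had 134 ± 24.6 CPM in control input and 55.8 ± 6.96 CPM in control IP, a log2 fold change of -1.22 (SE 0.14). Zcchc6, a uridylyltransferase that acts on let-7 precursors, had -1.06 (SE 0.12), and Adar, an adenosine deaminase of double-stranded RNA, had -0.97 (SE 0.19). By step, the median in control pools was 0.08 over 18 deadenylation genes, 0.008 over 12 decapping and decay genes, -0.08 over 5 Argonaute loading genes and 0.47 over 8 translational repression genes. It was -0.21 over 5 nuclear processing genes, 0.30 over 3 Dicer partners and 0.19 over 7 genes of let-7 precursor control and turnover.

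**Figure D5:**
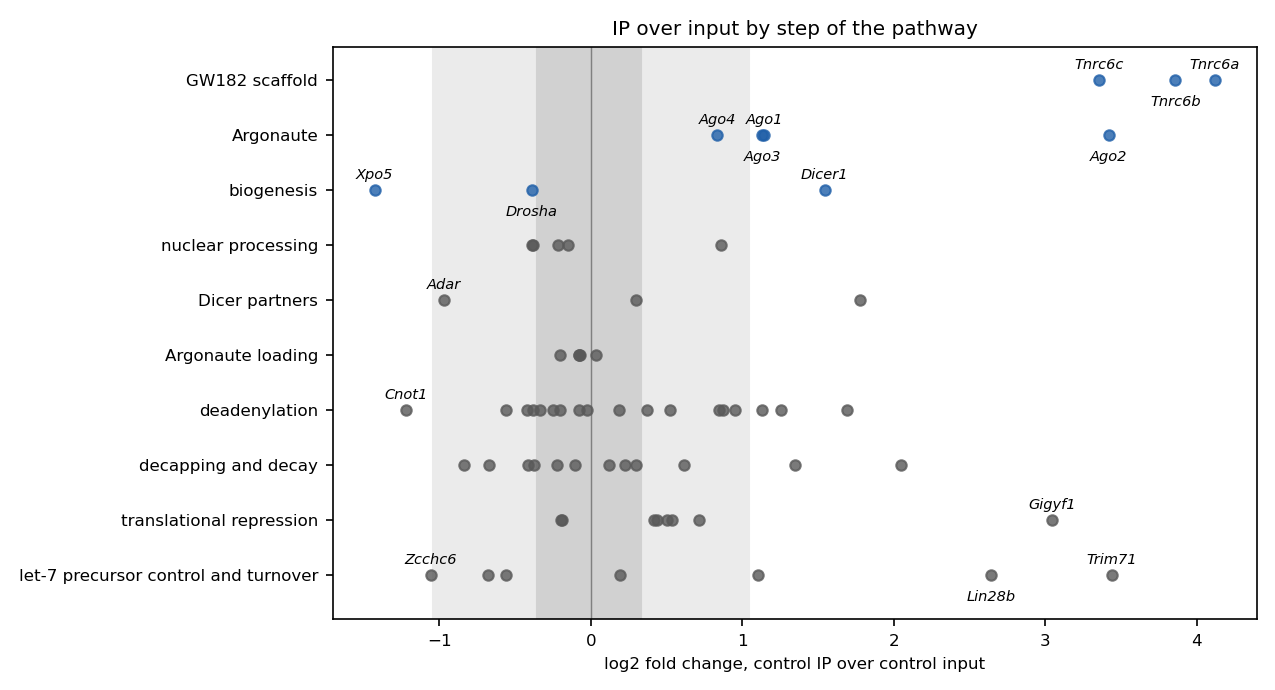
Log2 fold change of control IP over control input for the 10 core genes (blue) and the 58 tested pathway genes (grey), by step, with the core genes and the 3 highest and 3 lowest pathway genes named; grey bands hold the middle 50% and 90% of all tested genes. The GW182 genes and Ago2 lie between 3.35 and 4.12, whereas the Argonaute loading genes lie between -0.20 and 0.03.

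After damage, 6 of the 58 pathway genes were higher and 2 lower in DTR IP, and 4 were higher and 1 lower in DTR input (limma, adjusted p under 0.05), beside 8.44% and 7.3% of all tested genes in IP and 7.17% and 5.21% in input. With replicate numbers as a block, 12 of 58 were higher in IP and 10 of 58 in input, where 12.2% and 9.76% of tested genes were in the same fit. Ajuba, a LIM protein of Argonaute complexes, rose in both, from 93.9 ± 8.95 to 174 ± 20.3 CPM in IP (log2 fold change 0.91, adjusted p = 2.5e-05) and from 56.9 ± 7.10 to 136 ± 14.5 CPM in input (1.23, adjusted p = 6.2e-07). Zswim8, a ubiquitin ligase adaptor for target-directed miRNA decay, also rose in both, with log2 fold changes of 0.58 in IP (adjusted p = 0.0179) and 0.65 in input (adjusted p = 0.00977). Ddx17, an RNA helicase of the Drosha complex, rose by 0.67 in IP (adjusted p = 0.0161), and Cnot4, a ubiquitin ligase of CCR4-NOT, rose by 0.98 in input (adjusted p = 0.000529). The calls named last, in IP Wtip, Cnot6 and Gigyf2 and in input Wtip, were chosen after their values were seen, and Cnot6 lost its call without quantile normalization (adjusted p = 0.0508), with median centring (0.0728), with edgeR (0.116) and with DESeq2 (0.087). With only the groups compared in the model, Gigyf2 (adjusted p = 0.0733) and Cnot6 (0.0985) lost their IP calls.

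Trim71 fell in IP, from 25.9 ± 6.36 to 12.9 ± 2.42 CPM, a log2 fold change of -0.997 (SE 0.20, adjusted p = 0.0019), and the groups did not overlap. Fkbp4, a co-chaperone of HSP90, fell by 0.61 in IP (adjusted p = 0.00356) and by 0.46 in input (adjusted p = 0.0281) on the log2 scale. The call of Fkbp4 in input was lost in turn without control input replicate 1, 3 or 4 or DTR input replicate 1, 2 or 3, with adjusted p from 0.0504 to 0.0987. In IP, Ddx17 lost its call without control IP replicate 3 or 4 or DTR IP replicate 1, and Zswim8 without control IP replicate 3 or DTR IP replicate 4, with adjusted p from 0.0509 to 0.0634. None of the 58 was called by limma, edgeR or DESeq2 in the difference between the changes in IP and input, and 1 had an unadjusted p under 0.05 by limma, where 5.12% of tested genes did.

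The 5 tested genes whose pattern over the 16 libraries was most like that of Tnrc6a, by Pearson's r of log2 normalized CPM, were Tnrc6b (r = 0.999), Zcchc3 (0.998), Ago2 (0.996), Tnrc6c (0.996) and Igf2 (0.995). The points share 8 pools and fall into input and IP libraries, so these values describe that division and carry no test. Zcchc3 averaged 46.5 CPM in control input and 441 CPM in control IP, and Igf2, a fetal growth factor, 326 and 3694 CPM. Dicer1 was 79th in that order (r = 0.981), Ago1 392nd (0.951), Ago3 627th (0.931) and Ago4 1182nd (0.879), while Drosha (r = -0.71) and Xpo5 (r = -0.94) ran the other way.

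Over the 14415 tested genes with a 3′ UTR, IP over input was grouped by the number of let-7 matches, as a description with no test. The median log2 fold change in control pools was -0.04 over 12893 genes with no match, 0.12 over 1333 with 1 match, 0.24 over 161 with 2 matches and 1.03 over 28 with at least 3, which include Ago2, Trim71 and Lin28b. Of those 28 genes 4 were below 0, down to -0.82 for Mcf2l with 7 matches and -0.43 for Nudt12 with 7. The median 3′ UTR length rose along with the matches, from 1072 to 2179, 3521 and 4460 bases. By 3′ UTR length alone, the median log2 fold change was 0.03 over the 1077 genes with 3′ UTRs of 4000 to 8000 bases. It was 0.17 over the 119 genes with longer ones. IP over input was not grouped by the length of the whole message. Before its clustering the study corrected IP samples for an effect of gene length, and no such correction was made here.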

How the data were processed

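Values were read counts per gene scaled to a library total of 1000000 (CPM) that the authors deposited, 1 column per library. Per the study's methods, reads from libraries made with SMART-Seq v4 were aligned to GRCm38 with HISAT2 (version 2.0.4) and counted with HTSeq, while the submitters' processing notes name TopHat. The annotation release is not given in the sources used here. Of 50316 genes, 2587 were given as NA in every library, and 47729 had values. In each library 100% of values above 0 were whole multiples of 1 read (within 0.01 reads), which recovered read counts. A count of 3 reads was 0.0715 to 0.107 CPM, which covers counting error only, since amplified reads are not independent molecules.

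CPM were quantile normalized, log2 transformed after adding 0.5, and kept at 0.5 CPM or more in all 4 libraries of at least 1 group (16994 genes). Group means were fitted to the 16 libraries together in limma (3.58.1, under R 4.3.3), with a trended prior variance, two-sided tests and p-values adjusted by Benjamini-Hochberg. The study's separation criterion raised values under 1.08 CPM (10th percentile) to that floor. Alternatives were other scalings, pseudocounts (0.1, 1) and filters, the compared groups alone, a replicate block, edgeR (4.0.16) and DESeq2 (1.42.0) on the recovered reads, and each library left out. The fit was tested beforehand on simulated counts with known changes. Those counts were drawn independently for each library, so the simulation held no correlation within pools and no difference between control IP and control input.

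Input and IP of a pool come from the same homogenate and carry the same replicate number. Deviations from group means of same-numbered libraries correlated at 0.288 or more in every pair, control against DTR included (0.291 or more). Means for other numbers were -0.119 or lower. Deviations within a group sum to 0, so these negative means follow from the centring and add no evidence. The fourth replicate carries number 6 in the deposited tables. Replicates are separate pools of mice per the methods, so p-values of the change after damage rest on the spread between pools. The main fit took the 16 libraries as independent. The correlation of same-numbered libraries entered only the alternative with a replicate block.

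The 10 genes, the pathway and marker lists and the comparisons were chosen with earlier results of these data known. Named were all 10 genes, the 3 pathway genes with the largest change in each direction among those called after damage, the 3 highest and 3 lowest in control IP over input, and the 5 genes most correlated with Tnrc6a. Gene positions came from GENCODE M21 (GRCm38), and miRNA sequences from RefSeq, in which 12 of 13 looked up were found (mmu-miR-124-3p has no entry in the table).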

Additional observations from a re-analysis of the deposited data

Results flagged for a closer look

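In the 10 genes and 4 groups, 40 sets of 4 libraries were checked for a library far from the other 3, and chance alone marks about 1 in 20 such sets. Marked were 2 sets. Ago4 in control IP replicate 4 measured 19.98 CPM, with the nearest other library at 26.9 CPM. Tnrc6b in DTR input replicate 4 measured 65.1 CPM, with the nearest other library at 54.7 CPM. The cause was not tested.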

How the results depend on the processing

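The IP over input of all 10 genes kept its sign under the 26 alternatives, from 4.00 to 4.31 for Tnrc6a and from -1.53 to -1.34 for Xpo5 in control pools, and 0 of the 10 genes was called in DTR IP against control IP under any of them. In input, 1 gene (Tnrc6b) was called higher when only the groups compared were modelled, and the genes called lower ranged from 0 to 1 with a library left out. No count of the 10 genes changed with the replicate block, under which Ago1 in input had an adjusted p of 0.0112. The pathway genes called higher in DTR IP numbered 6 in the main fit and 4 to 12 over the 26 alternatives. They were 12 with the replicate block and 10 without control IP replicate 2. Those called lower were 2 to 4. In DTR input the pathway genes called higher were 10 with the replicate block and 7 with only the groups compared, and those called lower were 0 without the filter on low values and 0 to 1 with a library left out. Genes called in the interaction numbered 2, and 1 without quantile normalization, 0 with a pseudocount of 0.1, without the filter and with edgeR, 40 with the replicate block, 49 with DESeq2 and 0 to 6 with a library left out. The cause of these shifts was not tested.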
